A study of Arabidopsis thaliana with 18 samples.

Results

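The cycling DOF factor genes of Arabidopsis were followed through RNA-seq libraries of whole sob3-6 and SOB3-D seedlings. The 6 genes were taken by their locus identifiers, namely CDF1 (AT5G62430), CDF2 (AT5G39660), CDF3 (AT3G47500), CDF4 (AT2G34140), CDF5 (AT1G69570) and COG1 (AT1G29160). They stand for 6 of 24953 genes and 7 of 32811 transcripts in the deposited tables, since CDF2 is listed with 2 transcripts. All 6 passed the minimum mean of 0.5 CPM in every comparison. The rule that names them uses no measured value, although the set was picked for description with earlier results of these data known.

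Both genotypes are in the Col-0 background. SOB3-D is an activation-tagged line that overexpresses SOB3, a gene for an AT-hook motif nuclear-localized (AHL) protein. The sob3-6 line carries in addition a missense change in that copy, within the AT-hook, and is known to act in a dominant-negative way, so both lines overexpress the gene and no wild type was sequenced. Seedlings grew in short days of 8 h light and 16 h dark and were harvested at ZT4 (4 h after dawn) and ZT9 (1 h after lights off) at the age of 5 days, and at ZT24 (the next dawn) at 6 days. Each of the 6 groups has 3 libraries, and each library is a pool of whole seedlings. Time of day goes with the harvest itself, and at ZT24 with age, which cannot be told apart.

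CDF proteins bind DNA through a DOF zinc finger and repress the flowering regulator CONSTANS (CO) and the florigen gene FLOWERING LOCUS T (FT). Their transcripts are known to be high around dawn and in the morning, to be held down later in the day by the PRR clock repressors, and their proteins to be removed in the afternoon by the F-box protein FKF1 together with GIGANTEA (GI). CDF5 is also known to promote hypocotyl growth at the end of the night in short days, next to the PHYTOCHROME INTERACTING FACTORs (PIFs).

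Libraries held 6012747 to 11076919 mapped reads (median 8199501.5), so that 3 reads, the upper limit a count of 0 allows, were worth 0.271 to 0.499 CPM at ZT4, 0.335 to 0.421 CPM at ZT9 and 0.307 to 0.379 CPM at ZT24. These limits cover counting error only. SOB3 itself was read at 227 to 331 CPM in sob3-6, against 133 to 235 CPM in SOB3-D. The replicates are separate plates. In whole seedlings, fewer cells of a type and less RNA per cell cannot be told apart.

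On the TAIR10.1 assembly, CDF1 lies on chromosome 5 from 25069093 to 25071111 (minus strand) and CDF2 on chromosome 5 from 15878698 to 15881537 (plus strand). CDF3 lies on chromosome 3 from 17503883 to 17506124, CDF4 on chromosome 2 from 14413694 to 14414788, CDF5 on chromosome 1 from 26161528 to 26163715 and COG1 on chromosome 1 from 10183390 to 10184512, all on the minus strand. CDF4 and COG1 have 1 exon, and the longest transcripts of the other 4 have 2. Over 1241 bases, CDF5 overlaps the long noncoding RNA gene AT1G69572 (FLORE), which is read from the opposite strand. No 84-base stretch (the shorter read length) of a CDF transcript occurs on the same strand in a transcript of another gene, but 53.8% of the stretches of CDF5 occur in FLORE on the opposite strand. Libraries were stranded, whether counting used strand is not given in the sources used here, and FLORE had no values among the transcripts listed. The level of CDF5 is therefore uncertain where FLORE is transcribed.

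The 300 bases before the annotated start are shown for the 4 genes whose levels differed most between harvests, to set those that moved together side by side. Capitals mark matches to the G-box (CACGTG), the PBE-box (CACATG), the evening element (AAAATATCT) or the CCA1 binding site (AAAAATCT), searched on both strands. CDF1 is at chr5:25071112-25071411 and CDF3 at chr3:17506125-17506424, both on the minus strand. CDF2 is at chr5:15878398-15878697 on the plus strand and CDF5 at chr1:26163716-26164015 on the minus strand.
CDF1: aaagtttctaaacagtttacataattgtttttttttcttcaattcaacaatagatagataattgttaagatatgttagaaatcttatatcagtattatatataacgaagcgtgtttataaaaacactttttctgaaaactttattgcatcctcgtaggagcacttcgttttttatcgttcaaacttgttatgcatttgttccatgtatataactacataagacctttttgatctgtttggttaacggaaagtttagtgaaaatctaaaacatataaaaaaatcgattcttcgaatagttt
CDF3: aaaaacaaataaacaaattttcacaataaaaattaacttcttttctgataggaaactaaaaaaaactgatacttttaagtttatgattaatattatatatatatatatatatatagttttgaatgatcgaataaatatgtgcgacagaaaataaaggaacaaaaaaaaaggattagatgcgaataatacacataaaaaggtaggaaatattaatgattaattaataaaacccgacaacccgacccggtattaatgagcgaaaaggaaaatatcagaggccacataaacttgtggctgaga
CDF2: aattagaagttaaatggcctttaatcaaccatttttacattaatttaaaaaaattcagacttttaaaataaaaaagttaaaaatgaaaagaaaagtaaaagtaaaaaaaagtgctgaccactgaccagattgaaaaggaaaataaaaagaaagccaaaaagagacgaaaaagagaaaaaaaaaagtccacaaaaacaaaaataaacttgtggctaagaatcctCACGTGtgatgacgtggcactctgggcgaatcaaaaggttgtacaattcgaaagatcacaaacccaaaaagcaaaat
CDF5: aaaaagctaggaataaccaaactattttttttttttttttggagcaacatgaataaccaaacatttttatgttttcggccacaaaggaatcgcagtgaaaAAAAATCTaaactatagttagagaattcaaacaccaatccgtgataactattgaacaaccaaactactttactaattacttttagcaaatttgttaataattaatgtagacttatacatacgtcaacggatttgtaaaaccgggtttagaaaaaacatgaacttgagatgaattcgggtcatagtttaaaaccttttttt

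The CDF2 window held a G-box 77 to 72 bases before the start, a motif found in 7.09% of the 27443 windows of this length before protein-coding genes. The CDF5 window held a CCA1 binding site 200 to 193 bases before the start, found in 7.94% of those windows. None of the 4 motifs was found in the windows of CDF1, CDF3, CDF4 and COG1. The PBE-box and the evening element, found in 13.1% and 2.79% of all windows, were in none of the 6. The 6 windows were 25.7% to 30.7% G and C. A match is a description of the letters and no evidence of binding.

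The 6 genes fell into 3 patterns over the harvests. CDF1 and CDF3 were high at ZT4 and ZT24 and low at ZT9, and CDF2 and CDF5 were highest at ZT24. CDF4 and COG1 were low throughout, with their highest group means at ZT9 in both genotypes. In CPM, which does not correct for transcript length, the highest group mean exceeded the lowest 16.4-fold in sob3-6 and 41.8-fold in SOB3-D for CDF3, and 10.6-fold in sob3-6 and 22.6-fold in SOB3-D for CDF1. The ratios were 11.6 in sob3-6 and 11.3 in SOB3-D for CDF2, and 5.57 in sob3-6 and 4.32 in SOB3-D for CDF5. For CDF4 and COG1 they were between 1.47 and 2.42.

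**Figure D1:**
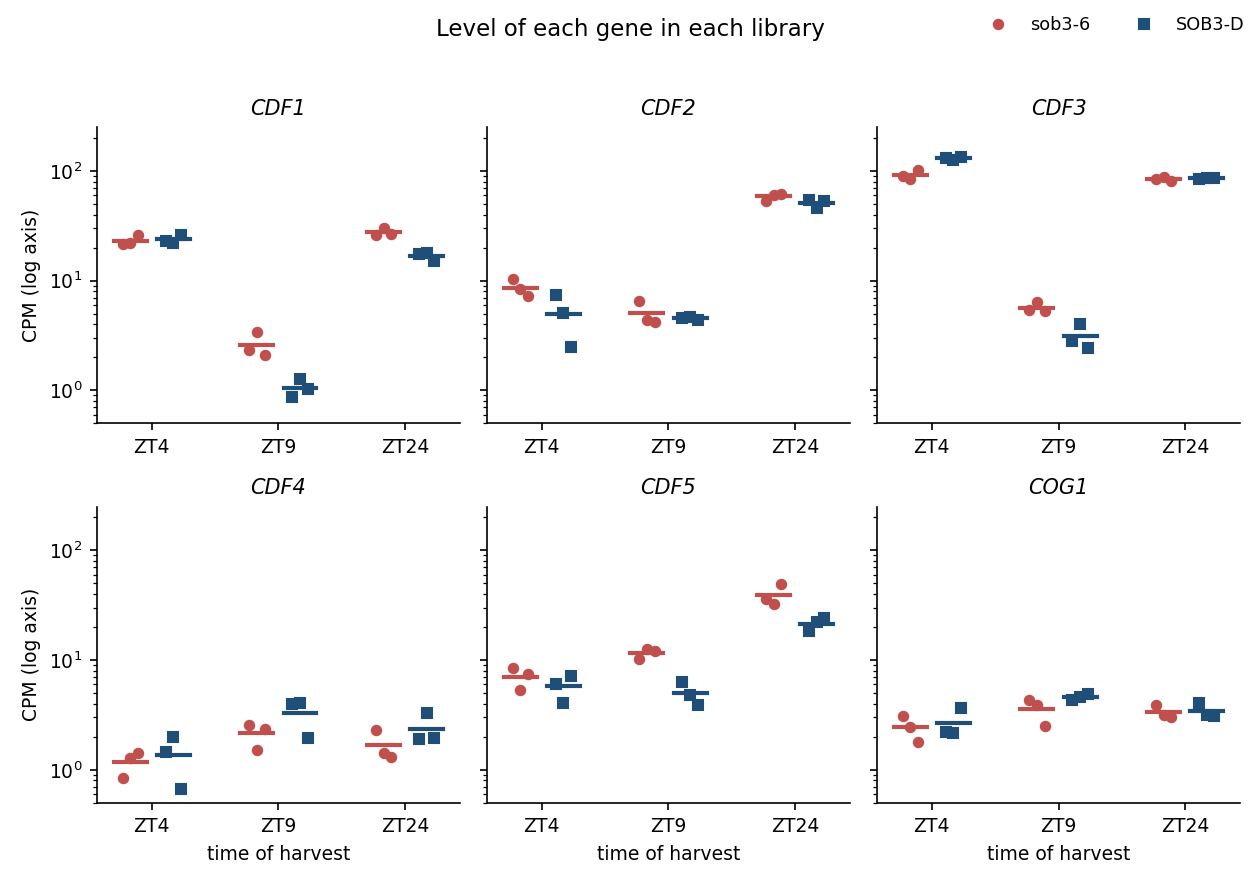
Level of the 6 CDF genes in each of 18 libraries, in CPM on a log axis, at ZT4, ZT9 and ZT24, with sob3-6 as circles and SOB3-D as squares and a bar at each mean of 3 libraries. CDF1 and CDF3 fall to 1.05 to 5.67 CPM in the group means at ZT9, CDF2 and CDF5 are highest at ZT24, and CDF4 and COG1 stay below 5 CPM.

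CDF3, which acts with the other CDF genes against CO and is also known for cold and drought tolerance, had the highest level per transcript length of the 6 at ZT4. It was read at ZT4 at 90.3, 85.5 and 102 CPM in sob3-6, against 132, 126 and 134 CPM in SOB3-D. At ZT9 it was read at 5.36, 6.40 and 5.25 CPM in sob3-6, against 2.85, 4.07 and 2.45 CPM in SOB3-D. The genotypes did not overlap at either time, but sob3-6 was the lower of the 2 at ZT4 and the higher at ZT9. At ZT24 CDF3 was read at 84.3, 88.6 and 81.6 CPM in sob3-6, against 84.8, 87.2 and 86.9 CPM in SOB3-D, where the libraries overlapped.

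CDF1, the founding member, which represses CO and FT in the morning, was read at ZT4 at 21.5, 22.1 and 26.2 CPM in sob3-6, against 23.1, 22.3 and 26.1 CPM in SOB3-D. At ZT9 it was read at 2.34, 3.39 and 2.12 CPM (21, 27 and 17 reads) in sob3-6, against 0.867, 1.26 and 1.03 CPM (7, 9 and 8 reads) in SOB3-D. At ZT24 it was read at 26.3, 30.5 and 26.5 CPM in sob3-6, against 17.4, 17.8 and 15.0 CPM in SOB3-D. The genotypes overlapped at ZT4 and were apart at ZT9 and ZT24, with sob3-6 above SOB3-D each time.

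CDF5 was read at ZT4 at 8.44, 5.35 and 7.41 CPM in sob3-6, against 6.11, 4.06 and 7.15 CPM in SOB3-D. At ZT9 it was read at 10.2, 12.7 and 12.2 CPM in sob3-6, against 6.32, 4.77 and 3.86 CPM in SOB3-D. At ZT24 it was read at 35.8, 32.6 and 49.7 CPM in sob3-6, against 18.4, 22.2 and 24 CPM in SOB3-D. As for CDF1, the genotypes overlapped at ZT4 and were apart at ZT9 and ZT24. Unlike CDF1 and CDF3, the gene was not at its lowest at ZT9 in sob3-6.

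CDF2, which acts redundantly with CDF1 in delaying flowering, was read at ZT4 at 10.3, 8.38 and 7.29 CPM in sob3-6, against 7.48, 5.06 and 2.49 CPM in SOB3-D. At ZT9 it was read at 6.47, 4.39 and 4.25 CPM in sob3-6, against 4.58, 4.63 and 4.38 CPM in SOB3-D. At ZT24 it was read at 53.6, 60 and 62.4 CPM in sob3-6, against 54.7, 46.4 and 52.9 CPM in SOB3-D. The genotypes overlapped at each time. Its lowest value, 2.49 CPM from 15 reads, came from the library with the fewest mapped reads. The other listed transcript of CDF2 shares reads with this one and was read at 7.73 ± 1.48 CPM in sob3-6, against 4.30 ± 2.17 CPM in SOB3-D at ZT4 (SD, n = 3 each).

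CDF4, known from work on seed dormancy, root tip differentiation and leaf senescence, was read at 0.665 to 4.07 CPM over the 18 libraries, from 4 to 32 reads each. COG1, known as a negative regulator of phytochrome signalling, was read at 1.79 to 4.89 CPM. The genotypes overlapped at each time for CDF4, and for COG1 as well. In the order of the 6 group means, every pair of neighbours overlapped for these 2 genes. For CDF1 the neighbours SOB3-D at ZT4 and sob3-6 at ZT4 overlapped and the other 4 pairs of neighbours were apart. For CDF3 the order was SOB3-D at ZT4, sob3-6 at ZT4, SOB3-D at ZT24, sob3-6 at ZT24, sob3-6 at ZT9 and SOB3-D at ZT9, where SOB3-D at ZT24 overlapped with sob3-6 at ZT4 and with sob3-6 at ZT24. CDF2 in the 2 genotypes overlapped at ZT24, as did its 3 lowest groups. CDF5 ran from sob3-6 at ZT24 over SOB3-D at ZT24 and sob3-6 at ZT9 to 3 groups that overlapped, namely sob3-6 at ZT4, SOB3-D at ZT4 and SOB3-D at ZT9.

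Levels of different genes were compared per kilobase of the longest annotated transcript, in CPM per kb. These lengths come from a newer annotation than the TAIR10 transcripts the reads were mapped to, and CDF2 has models of 1692 to 2284 bases. At ZT4 CDF3 stood at 48.8 ± 4.56 CPM per kb in sob3-6 and 68.9 ± 2.15 in SOB3-D, above CDF1 at 16.3 ± 1.78 in sob3-6 and 16.7 ± 1.41 in SOB3-D. The other 4 genes were between 1.09 and 3.78 CPM per kb. At ZT9 the highest per-length level was that of CDF5 in sob3-6 (6.07 ± 0.695 CPM per kb) and that of COG1 in SOB3-D (4.11 ± 0.248 CPM per kb). CDF1 and CDF3 were thus no longer the highest at ZT9. At ZT24 CDF3 was again the highest, at 44.6 ± 1.86 CPM per kb in sob3-6 and 45.4 ± 0.684 in SOB3-D. CDF2 followed at 25.7 ± 1.99 in sob3-6 and 22.5 ± 1.90 in SOB3-D, then CDF5 at 20.4 ± 4.73 in sob3-6 and 11.2 ± 1.47 in SOB3-D and CDF1 at 19.5 ± 1.68 in sob3-6 and 11.7 ± 1.07 in SOB3-D (SD, n = 3 for each value).

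The genotypes were compared at each harvest to ask which genes depend on AHL activity. Differences are log2 fold changes of sob3-6 over SOB3-D on the log2(CPM + 0.5) scale, tested with limma and adjusted over all transcripts tested, and a gene was called at an adjusted p under 0.05. The added 0.5 CPM makes the fold changes of low genes smaller than the ratios of their mean CPM. Where a share of transcripts is set beside a count, it covers the nuclear genes tested, each by its transcript with the highest mean. Such shares come from these limma fits and were not counted for edgeR, DESeq2 or other variants.

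At ZT4 CDF3 was lower in sob3-6 and no CDF gene was called higher. Of 6 members 1 was called lower, against 2.46% of the 20515 nuclear genes tested, and 0 were called higher, against 4.29%. At an unadjusted p under 0.05 CDF2 was higher in limma, and edgeR and DESeq2 each called 0 higher. CDF3 averaged 92.7 ± 8.66 CPM in sob3-6, against 131 ± 4.08 CPM in SOB3-D (SD, n = 3 each), a log2 fold change of -0.50 (SE 0.0955, limma adjusted p = 0.0173). Every sob3-6 library was below every SOB3-D library. CDF2 averaged 8.64 ± 1.5 CPM in sob3-6, against 5.01 ± 2.49 CPM in SOB3-D, a log2 fold change of 0.83 (95% interval 0.11 to 1.55, limma adjusted p = 0.172). CDF1, CDF4, CDF5 and COG1 had log2 fold changes of -0.04 (-0.31 to 0.23), -0.10 (-0.84 to 0.64), 0.28 (-0.25 to 0.81) and -0.10 (-0.69 to 0.49). With the replicate block, CDF2 had a limma adjusted p of 0.0401, and over the 9 alternatives its adjusted p ran between 0.0347 and 0.319. The call of CDF3 was lost without sob3-6 replicate 1 or 2 or SOB3-D replicate 2 or 3 (limma adjusted p between 0.00895 and 0.0795 over the 6 fits without 1 library). A call of CDF2 was gained without SOB3-D replicate 1 (limma adjusted p between 0.0495 and 0.381 over the 6 fits). The log2 fold change of CDF2 was 1.15 in that fit and 0.44 without SOB3-D replicate 3, the library with the fewest mapped reads.

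At ZT9, in the early night, CDF1, CDF3 and CDF5 were higher in sob3-6. Of 6 members 3 were called higher, against 6.00% of 20462 nuclear genes, and 0 were called lower, against 4.03%. Limma at an unadjusted p under 0.05, edgeR and DESeq2 also gave 0 lower. CDF5 averaged 11.7 ± 1.34 CPM in sob3-6, against 4.98 ± 1.24 CPM in SOB3-D, a ratio of means of 2.35 and a log2 fold change of 1.17 (SE 0.193, limma adjusted p = 0.00719). CDF1 averaged 2.62 ± 0.674 CPM in sob3-6, against 1.05 ± 0.199 CPM in SOB3-D, a ratio of 2.48 and a log2 fold change of 0.99 (SE 0.252, limma adjusted p = 0.0387). For CDF5 and CDF1 every sob3-6 library was above every SOB3-D library. CDF3 averaged 5.67 ± 0.634 CPM in sob3-6, against 3.12 ± 0.845 CPM in SOB3-D, a ratio of 1.82 and a log2 fold change of 0.79 (SE 0.212, limma adjusted p = 0.0479). CDF2, CDF4 and COG1 had log2 fold changes of 0.12 (-0.33 to 0.56), -0.50 (-1.18 to 0.18) and -0.36 (-0.85 to 0.14).

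The ZT9 call of CDF5 held in each of the 6 fits without 1 library and in all 9 alternatives. CDF1 and CDF3 rest on 24 and 71 reads in SOB3-D over 3 libraries, and their calls were close to the threshold. CDF1 kept its call only without sob3-6 replicate 3 and lost it when any of the other 5 libraries was left out (limma adjusted p between 0.0374 and 0.164), with no filter and in DESeq2. CDF3 kept its call only without SOB3-D replicate 2 and lost it when any of the other 5 libraries was left out (between 0.0420 and 0.177), with a pseudocount of 0.1 CPM, with no filter, in edgeR and in DESeq2. edgeR called 2 members higher at ZT9 and DESeq2 called 1. With the replicate block the limma adjusted p was 0.0260 for CDF1 and 0.0218 for CDF3. In 1 limma fit of 18 libraries it was 0.000264 for CDF1 and 0.000365 for CDF3.

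At ZT24, the end of the night, CDF1 and CDF5 were higher in sob3-6. Of 6 members 2 were called higher, against 4.91% of 20530 nuclear genes, and 0 lower, against 1.85%. Limma at an unadjusted p under 0.05, edgeR and DESeq2 also gave 0 lower. CDF1 averaged 27.8 ± 2.39 CPM in sob3-6, against 16.7 ± 1.53 CPM in SOB3-D, a ratio of 1.66 and a log2 fold change of 0.72 (SE 0.108, limma adjusted p = 0.00580), and kept its call whichever library was left out. CDF5 averaged 39.4 ± 9.11 CPM in sob3-6, against 21.5 ± 2.83 CPM in SOB3-D, a ratio of 1.83 and a log2 fold change of 0.84 (SE 0.162, limma adjusted p = 0.0155). It lost its call with no filter and without SOB3-D replicate 1 or replicate 2 (limma adjusted p between 0.0165 and 0.0570 over the 6 fits). CDF2, CDF3, CDF4 and COG1 had log2 fold changes of 0.19 (-0.01 to 0.40), -0.03 (-0.17 to 0.12), -0.39 (-1.02 to 0.23) and -0.01 (-0.44 to 0.41). The interval of CDF3 was thus narrow around 0, while that of CDF4 leaves room for a change of either sign. The median log2 fold change of the 6 members was -0.07 at ZT4, 0.45 at ZT9 and 0.09 at ZT24. Over the nuclear genes tested the median was 0.043, 0.031 and 0.010.

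**Figure D2:**
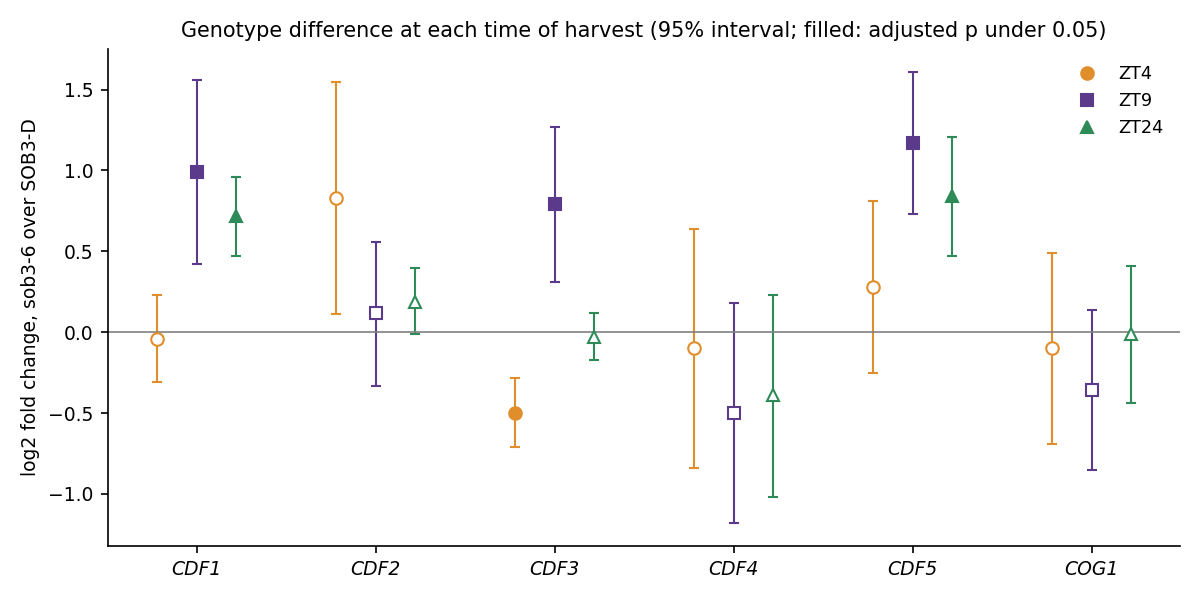
Log2 fold change of sob3-6 over SOB3-D for each CDF gene at ZT4 (circles), ZT9 (squares) and ZT24 (triangles), with 95% intervals from limma on 3 libraries a group and filled symbols for calls. CDF3 is at -0.50 at ZT4 and 0.79 at ZT9, CDF1 and CDF5 are above 0 at ZT9 and ZT24, and the intervals of CDF4 and COG1 all include 0.

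Whether the genotype difference changed between harvests was tested with interaction terms, fitted by limma to all 18 libraries together. Between ZT4 and ZT9 it moved towards higher levels in sob3-6 for 2 of 6 members, against 1.04% of 20567 nuclear genes. It moved towards lower levels for 0, against 0.418%, with 0 also at an unadjusted p under 0.05 in limma and in edgeR and DESeq2. It changed by 1.28 on the log2 scale for CDF3 (SE 0.175, limma adjusted p = 0.00128) and by 1.03 for CDF1 (SE 0.213, limma adjusted p = 0.0192). For CDF5 it changed by 0.89 (95% interval 0.24 to 1.54, limma adjusted p = 0.214), and for CDF2 by -0.71 (-1.45 to 0.02, limma adjusted p = 0.467). The call of CDF3 was lost without replicate 1 (limma adjusted p between 0.00888 and 0.0890 over the 3 fits without 1 replicate number) and that of CDF1 without replicate 1 or 2 (0.0493 to 0.296).

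Between ZT9 and ZT24 the difference moved towards lower levels in sob3-6 for 1 of 6 members, against 1.48% of transcripts, and towards higher levels for 0, against 2.54%, with 0 by the same 3 counts. CDF3 changed by -0.81 (SE 0.175, limma adjusted p = 0.0135), which was lost without replicate 1, 2 or 3 (between 0.0750 and 0.254). CDF1 changed by -0.28 (-0.72 to 0.17) and CDF5 by -0.33 (-0.98 to 0.32). Between ZT4 and ZT24 limma called 0 of 6 members, against 2.95% of transcripts, with 2 at an unadjusted p under 0.05, 1 in edgeR and 2 in DESeq2. Those 2 were CDF1, which changed by 0.75 (0.30 to 1.2, limma adjusted p = 0.0669), and CDF3, which changed by 0.47 (0.10 to 0.84, limma adjusted p = 0.176). With the replicate block their limma adjusted p was 0.0212 and 0.0379, within 0.00888 to 0.0960 for CDF1 and 0.0117 to 0.217 for CDF3 over the 8 alternatives, and neither was called in a fit without 1 replicate number.

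Within each genotype the harvests were compared in the same fit. From ZT4 to ZT9 CDF1 and CDF3 fell in sob3-6 and in SOB3-D. In sob3-6, 3 members fell, against 9.34% of transcripts, and 1 rose, against 16.4%. In SOB3-D, 2 fell, against 12.5%, and 2 rose, against 21.3%. CDF3 fell by 3.92 on the log2 scale in sob3-6 (SE 0.124, limma adjusted p = 2.44e-13) and fell by 5.20 in SOB3-D (SE 0.124, limma adjusted p = 5.88e-15). CDF1 fell by 2.95 in sob3-6 (SE 0.150, limma adjusted p = 1.42e-10) and by 3.97 in SOB3-D (SE 0.150, limma adjusted p = 1.23e-12). These falls were smaller in sob3-6 by the interaction values above.

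The other calls from ZT4 to ZT9 were smaller. In sob3-6 CDF2 fell by 0.73 (limma adjusted p = 0.0347, lost without replicate 2) and CDF5 rose by 0.70 (limma adjusted p = 0.0225, lost without replicate 2 or 3), while in SOB3-D CDF2 had a log2 fold change of -0.02 (-0.54 to 0.50) and CDF5 of -0.19 (-0.64 to 0.27). In SOB3-D CDF4 rose by 1.04 (limma adjusted p = 0.0165), although its libraries of the 2 harvests overlapped, and COG1 by 0.72 (limma adjusted p = 0.0182), both lost without replicate 1 or 2, while in sob3-6 they had log2 fold changes of 0.64 (-0.03 to 1.31) and 0.47 (-0.01 to 0.94). The interaction was not called for any of these 4 genes, so a difference between the genotypes in these changes was not shown.

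From ZT9 to ZT24, over the night, CDF1, CDF2, CDF3 and CDF5 rose in both genotypes. These were 4 of 6 members in sob3-6, against 12.3% of transcripts, and 4 of 6 in SOB3-D, against 18.3%. CDF3 rose by 3.79 in sob3-6 and 4.61 in SOB3-D, CDF2 by 3.44 in sob3-6 and 3.36 in SOB3-D, CDF1 by 3.20 in sob3-6 and 3.47 in SOB3-D and CDF5 by 1.69 in sob3-6 and 2.02 in SOB3-D. Each of these 8 calls held whichever replicate number was left out, and the largest limma adjusted p was 8.91e-06. CDF4 and COG1 had log2 fold changes between -0.39 and -0.05, with intervals that included 0, and no member was called lower, against 13.6% of transcripts in sob3-6 and 19.0% in SOB3-D, where limma at an unadjusted p under 0.05, edgeR and DESeq2 also gave 0.

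From ZT4 to ZT24 CDF2 and CDF5 rose in both genotypes. CDF2 rose by 2.70 in sob3-6 and 3.34 in SOB3-D, and CDF5 by 2.40 in sob3-6 and 1.84 in SOB3-D (largest limma adjusted p = 2.49e-06). These were 2 of 6 members in sob3-6, against 14.9% of transcripts, and 2 of 6 in SOB3-D, against 22.0%. CDF1 and CDF3 fell in SOB3-D, by 0.50 (limma adjusted p = 0.0134, lost without replicate 1 or 3) and by 0.59 (limma adjusted p = 0.000878), which makes 2 of 6 against 15.1%. In sob3-6 they had log2 fold changes of 0.25 (-0.07 to 0.57) and -0.12 (-0.39 to 0.14), and 0 members were called lower, against 10.4%, with 0 also at an unadjusted p under 0.05 and in edgeR and DESeq2.

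**Figure D3:**
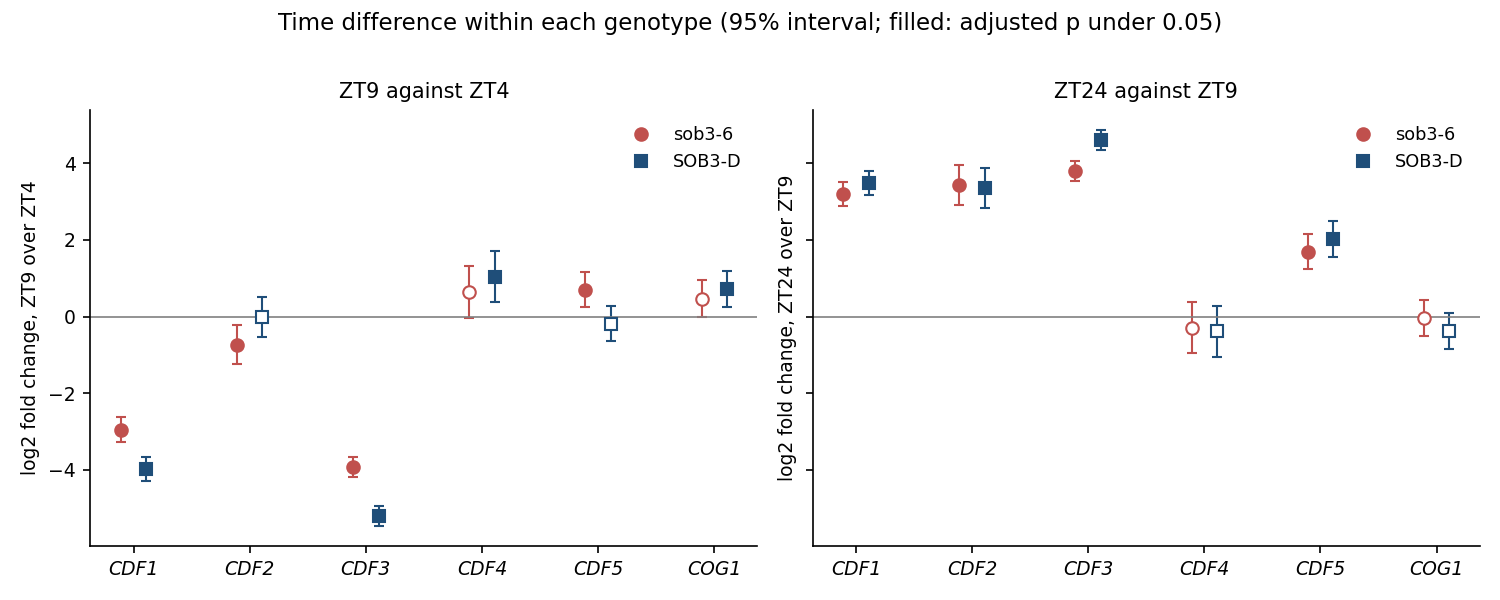
Log2 fold change between harvests of each CDF gene, ZT9 over ZT4 on the left and ZT24 over ZT9 on the right, with sob3-6 as circles and SOB3-D as squares, 95% intervals from 1 limma fit of 18 libraries and filled symbols for calls. CDF3 changes by -3.92 in sob3-6 and -5.20 in SOB3-D on the left, and CDF1, CDF2, CDF3 and CDF5 rise in both genotypes on the right.

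Over the 18 libraries the log2 levels of CDF1 and CDF3 had a Pearson r of 0.98 and those of CDF2 and CDF5 one of 0.86, while CDF1 with CDF2 had 0.53. CDF4 had -0.62 with CDF1, and COG1 -0.59. These points share the 3 harvests and the libraries, so r describes mainly the pattern over the day, and no p is given. Among 19632 nuclear genes with a mean of at least 1 CPM, SIGA (a chloroplast RNA polymerase sigma factor, r = 0.991) and STO (the B-box protein BBX24, r = 0.990) were most like CDF1. The nitrate transporter family gene AT3G21670 (NPF6.4, r = 0.994) and STO (r = 0.989) were most like CDF3. AT3G21670 averaged 60.3 CPM in sob3-6, against 94.1 CPM in SOB3-D at ZT4, 5.10 CPM in sob3-6, against 2.80 CPM in SOB3-D at ZT9 and 56.0 CPM in sob3-6, against 46.2 CPM in SOB3-D at ZT24.

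AGD5 (an ARF GTPase-activating protein, r = 0.983) and SIS (r = 0.981) were most like CDF2, and the sulfotransferase gene ST2A (r = 0.965) and the cytokinin response factor CRF5 (r = 0.961) most like CDF5. ST2A averaged 27.2 CPM in sob3-6, against 8.75 CPM in SOB3-D at ZT9, and 325 CPM in sob3-6, against 75.8 CPM in SOB3-D at ZT24. The likeness was weaker for the low genes, with AT3G10290 (r = 0.893) and AT4G32050 (r = 0.845) for CDF4 and PRS3 (r = 0.920) and AT1G52380 (r = 0.871) for COG1.

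Of the genes whose products act on the CDF proteins, GI and FKF1 differed between the genotypes and ZTL and LKP2 were called at no harvest. Of these 4 genes, 1 was called lower in sob3-6 at ZT4, against 2.46% of transcripts, and 2 were called higher at ZT9, against 6.00%. At ZT24 limma called 0 of 4, with 1 at an unadjusted p under 0.05 and 0 in edgeR and DESeq2. GI, needed with FKF1 to remove CDF1 protein, was read at 79.0, 86.3 and 88.6 CPM in sob3-6, against 115, 104 and 109 CPM in SOB3-D at ZT4 (log2 fold change -0.37, limma adjusted p = 0.0448). At ZT9 it was read at 130, 140 and 92.1 CPM in sob3-6, against 60.2, 68.6 and 39.3 CPM in SOB3-D (log2 fold change 1.12, limma adjusted p = 0.0140). The genotypes did not overlap at either harvest. FKF1 was read at 77.7, 76.7 and 75.6 CPM in sob3-6, against 51.4, 58.7 and 55.6 CPM in SOB3-D at ZT9 (log2 fold change 0.47, limma adjusted p = 0.00997).

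Among the clock repressors PRR9, PRR7, PRR5 and TOC1, of which the PRRs are known to hold CDF transcripts down during the day, 1 of 4 was called lower at ZT4, against 2.46% of transcripts, and 2 of 4 higher at ZT9, against 6.00%. PRR9 averaged 50.7 CPM in sob3-6, against 76.0 CPM in SOB3-D at ZT4 (log2 fold change -0.58, limma adjusted p = 0.0351). At ZT9 PRR5 averaged 83.5 CPM in sob3-6, against 50.2 CPM in SOB3-D (0.73, limma adjusted p = 0.00180) and PRR7 105 CPM in sob3-6, against 71.6 CPM in SOB3-D (0.55, limma adjusted p = 0.00863). Of the dawn MYB genes CCA1 and LHY, 1 of 2 was called lower at ZT4, against 2.46% of transcripts. CCA1 averaged 36.2 CPM in sob3-6, against 66.4 CPM in SOB3-D at ZT4 (-0.84, limma adjusted p = 0.0140). LHY went the other way without a call, with 23.9 CPM in sob3-6, against 17.5 CPM in SOB3-D (0.46, limma adjusted p = 0.254). At ZT24, where CDF1 and CDF5 differed, limma called 0 of these 6 clock genes, with LHY at an unadjusted p under 0.05 and 0 in edgeR and DESeq2, while the replicate block called LHY higher (log2 fold change 0.27, limma adjusted p = 0.0107). The part of the clock genes in the CDF differences at ZT4, ZT9 and ZT24 was not tested.

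The repressed target CO was low in all libraries. It was read at 1.56, 2.63 and 2.62 CPM in sob3-6, against 4.71, 3.09 and 3.35 CPM in SOB3-D at ZT9, which did not overlap, with a log2 fold change of -0.61 (limma adjusted p = 0.168). Its log2 fold change was -0.32 at ZT4 and -0.07 at ZT24, neither called. FT reached at most 0.502 CPM and its relative TSF at most 0.125 CPM in any library, and their means were below the filter. TPL, the corepressor that CDF proteins recruit, had log2 fold changes of 0.01, 0.05 and -0.07 at ZT4, ZT9 and ZT24.

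Of 6 PIF genes 4 were called higher in sob3-6 at ZT9, against 6.00% of transcripts, and 1 at ZT24, against 4.91%. edgeR and DESeq2 each called 2 at ZT9. PIF4 was read at 158, 167 and 143 CPM in sob3-6, against 50.7, 60.2 and 53.2 CPM in SOB3-D at ZT9, a log2 fold change of 1.51 (limma adjusted p = 0.000119). PIF5 had a log2 fold change of 0.78 (limma adjusted p = 0.0213) and PIF7 one of 0.65 (limma adjusted p = 0.0422) at ZT9, and PIF3 one of 0.52 at ZT24 (limma adjusted p = 0.0271). Of the brassinosteroid genes CPD, DWF4 and BR6OX2, 2 were called higher at ZT4, against 4.29% of transcripts, CPD and BR6OX2 at 0.51 each. At ZT24 BR6OX2 was called higher at 0.83 (limma adjusted p = 0.00670), against 4.91% of transcripts. With the replicate block PIF4 was also called at ZT4 (limma adjusted p = 0.0433) and at ZT24 (0.0178), and LHY (0.0107) and PIF5 (0.0325) at ZT24, which makes 3 PIF genes at ZT24.

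**Figure D4:**
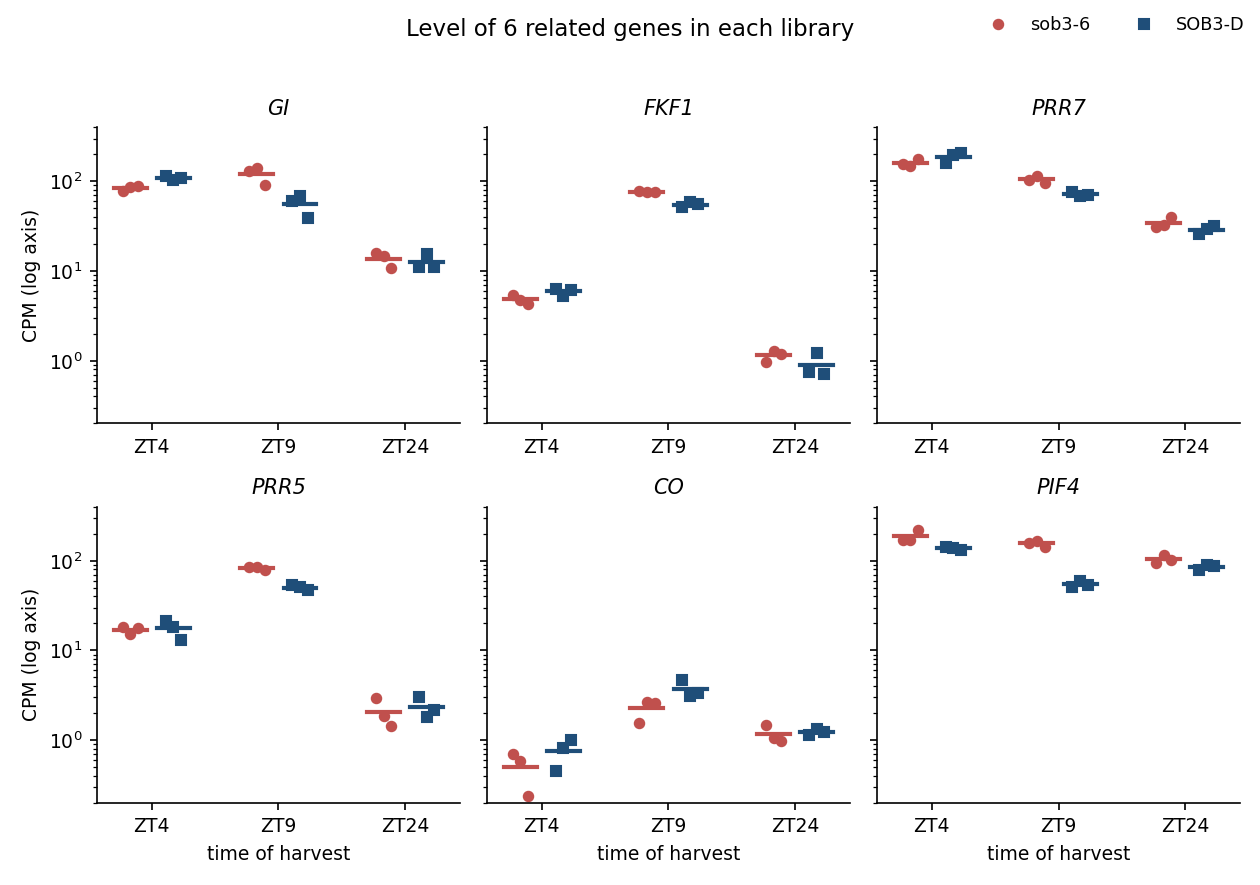
Level in CPM on a log axis of GI, FKF1, PRR7, PRR5, CO and PIF4 in each of 18 libraries, with sob3-6 as circles and SOB3-D as squares and a bar at each mean of 3 libraries. At ZT9 GI, FKF1, PRR7, PRR5 and PIF4 are higher in every sob3-6 library than in any SOB3-D library, and CO is lower in every sob3-6 library.

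The other DOF genes of Arabidopsis were counted for comparison. Of 30 listed loci 27 had values, and 23, 23 and 24 of them were tested at ZT4, ZT9 and ZT24. At ZT4 1 was called higher, against 4.29% of transcripts, and at ZT9 2 were called higher, against 6.00%. At ZT24 1 was called lower, against 1.85%. DOF2 (AT3G21270) was higher at ZT4 (log2 fold change 0.67, limma adjusted p = 0.0111) and at ZT9 (0.85, limma adjusted p = 0.0103), DAG2 was higher at ZT9 (0.50, limma adjusted p = 0.0460) and AT4G24060 was lower at ZT24 (-0.41, limma adjusted p = 0.0304). With the replicate block 5 were called higher at ZT9, and 3 higher and 2 lower at ZT24, where DOF2 was among the higher ones (limma adjusted p = 0.00858). No share over all genes was counted for the block. The median log2 fold change of the other DOF genes was 0.11, 0.07 and -0.03 at the 3 harvests. The DOF gene AT1G26790 had 0 reads in each of the 6 libraries of ZT9, which allows up to 0.335 to 0.421 CPM, and averaged 2.75 CPM in sob3-6, against 2.98 CPM in SOB3-D at ZT24.

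Markers of the tissues that make up a seedling were measured in the same libraries. All 4 markers of phloem companion cells, where CDF1 is known to act, were found in every library. Their summed level was 272 to 338 CPM in sob3-6, against 303 to 354 CPM in SOB3-D at ZT4, 324 to 375 CPM in sob3-6, against 297 to 315 CPM in SOB3-D at ZT9 and 287 to 322 CPM in sob3-6, against 268 to 335 CPM in SOB3-D at ZT24. At ZT4, where CDF3 was lower, 1 of 4 was called lower, against 2.46% of transcripts, namely FTIP1 (log2 fold change -0.48, limma adjusted p = 0.0464). Of 4 root markers 1, PYK10, was called lower at ZT9 (-0.61, limma adjusted p = 0.0172), against 4.03% of transcripts. PYK10 was also called lower at ZT24 (-0.41, limma adjusted p = 0.0307), against 1.85%. The sum of the 4 was 1810 to 2110 CPM in sob3-6, against 2940 to 3030 CPM in SOB3-D at ZT9. At ZT24 it was 1870 to 2030 CPM in sob3-6, against 2350 to 2850 CPM in SOB3-D. This sum is mostly PYK10, which alone averaged 1940 CPM in sob3-6, against 2950 CPM in SOB3-D at ZT9. EXPA7, COBL9 and CASP1 had ZT9 log2 fold changes of -0.40, 0.11 and 0.26, and ZT24 ones of -0.10, -0.08 and -0.07, none called. The green tissue markers CAB2 and RBCS1A had ZT9 log2 fold changes of 0.51 and -0.46, neither called by limma, while DESeq2 called CAB2 higher and RBCS1A lower. Their sum was 13200 to 17400 CPM in sob3-6, against 14300 to 19100 CPM in SOB3-D at ZT9 and 20600 to 21900 CPM in sob3-6, against 23500 to 23900 CPM in SOB3-D at ZT24. At ZT24 CAB2 had a log2 fold change of -0.41 (limma adjusted p = 0.0525), of opposite sign to ZT9, and was called lower by edgeR, DESeq2 and the replicate block (limma adjusted p = 0.00820). With the block CAB2 (limma adjusted p = 0.0368) was called higher at ZT9, and the phloem marker AHA3 was called higher at ZT9 (0.0498) and ZT24 (0.0394). The phloem markers SUC2, FTIP1 and NAKR1 had ZT9 log2 fold changes of 0.12, -0.26 and -0.00. At ZT24 they were all below 0, at -0.12, -0.14 and -0.31. None of these was called, with or without the block. The part of these markers in the CDF differences was not tested.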

How the data were processed

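RNA-seq was done on whole seedlings, 3 libraries for each of 6 groups. The authors mapped 84- or 86-bp single reads from a stranded kit to the TAIR10 cDNA with Bowtie, kept all best hits of a read and deposited a signal in CPM per transcript. A read that hit several transcripts counted on each, so a library sums to 1546178 to 1573550 CPM. All deposited values were whole multiples of 1 read (within 0.05 read), which gave the reads used for edgeR and DESeq2.

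Transcripts averaging 0.5 CPM or more were tested on log2(CPM + 0.5) with limma 3.58.1 (trend, two-sided, Benjamini-Hochberg, adjusted p under 0.05), 6 libraries per genotype comparison and 18 for the rest. Each gene was represented by its transcript with the highest mean. Of other lists GI, FKF1, CO, FT, PIF4, PIF5 and AT1G26790 were always named and others where called, at most the 3 largest changes per list and harvest, and the 2 genes most like each member. Further list genes complete their lists. The members and lists were chosen with earlier results of these data known. Genotypes of a replicate set came from the same plates, so replicate numbers pair them (r of deviations 0.0935 to 0.320 for same numbers, -0.225 to 0.110 for different ones). As alternatives, the pseudocount was 0.1 or 1 CPM, the filter was dropped or set to 5 CPM, and use was made of TMM, the replicate block, edgeR 4.0.16, DESeq2 1.42.0, 1 fit of 18 libraries (genotype comparisons) and fits without each library or number in turn. The limma fits were tested on simulated reads, drawn with the same dispersion for all transcripts and with no plate effect. R 4.3.3, Python 3.11.15, pandas 2.3.3, numpy 2.4.6 and matplotlib 3.10.9 were used. Positions and sequences are from RefSeq's TAIR10.1 assembly.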

Additional observations from a re-analysis of the deposited data

Results flagged for a closer look

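The genotype difference of 2 CDF genes changed between harvests by an interaction test across all transcripts. For CDF1 the log2 fold change of sob3-6 over SOB3-D was higher at ZT9 than at ZT4 by 1.03. For CDF3 it was higher at ZT9 than at ZT4 by 1.28 and lower at ZT24 than at ZT9, with a change of -0.81. CDF3 is the only one of the 6 genes whose genotype difference was called with opposite signs at 2 harvests in the fits per harvest. Its ZT4 call held in 2 of 6 fits without 1 library, and its ZT9 call in 1 of 6. Of the 3 fits without 1 replicate number, the change of 1.03 for CDF1 was called in 1. For CDF3 the change of 1.28 was called in 2 of those fits and that of -0.81 in 0.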

How the results depend on the processing

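Of the members' log2 fold changes under the alternatives, 769 kept sign and call, 38 lost a call, 10 gained one and 20 changed sign, all of the last in fits without 1 library or replicate number. The 769 include DESeq2 fits that gave no adjusted p and were counted as not called. These were the interactions of CDF4, and those of COG1 between ZT9 and ZT24 and between ZT4 and ZT24. The count called at ZT4, 1, became 2 with the replicate block and with 1 fit of 18 libraries, and was 0 to 2 without 1 library. At ZT9 the count of 3 became 1 with no filter, with DESeq2 and with a minimum of 5 CPM, which leaves CDF1 and CDF3 untested, and was 1 to 2 without 1 library. At ZT24 the count of 2 became 1 with no filter and was 1 to 2 without 1 library. The interaction count between ZT4 and ZT9, 2, was 0 to 2 and that between ZT9 and ZT24, 1, was 0 without 1 replicate number. Between ZT4 and ZT24 the count of 0 became 1 with a pseudocount of 1 CPM and with edgeR, and 2 with the replicate block and with DESeq2. From ZT4 to ZT9 the counts of 4 were 2 to 4 in sob3-6 and in SOB3-D without 1 replicate number, and 2 in SOB3-D with a minimum of 5 CPM, which leaves CDF4 and COG1 untested. The block changed no other call of the members. For the other changes the cause was not tested.

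Values near 0 changed sign without 1 library or replicate number. At ZT4 the log2 fold change of CDF1 ran over -0.12 to 0.03, that of CDF4 over -0.41 to 0.14 and that of COG1 over -0.26 to 0.11. At ZT9 CDF2 ran over -0.06 to 0.22, and at ZT24 CDF3 ran over -0.06 to 0.00 and COG1 over -0.11 to 0.09. Of the interactions between ZT9 and ZT24, CDF2 ran over -0.10 to 0.36 and CDF4 over -0.24 to 0.49, and of those between ZT4 and ZT24, CDF4 ran over -0.84 to 0.14 and COG1 over -0.30 to 0.36. COG1 in sob3-6 from ZT9 to ZT24 ran over -0.20 to 0.05, and in SOB3-D from ZT4 to ZT9 CDF2 ran over -0.38 to 0.29 and CDF5 over -0.38 to 0.13. Depth limits CDF1 and CDF3 at ZT9 and CDF4 and COG1 throughout, where 4 to 51 reads stand behind a value.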
